A study of Homo sapiens with 7 samples.

Results

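Immune checkpoint ligands are proteins that a tumor cell carries or releases and that hold back T cells, natural killer cells or macrophages. A set of 8 such genes was followed upon knockdown of the long non-coding RNA GRASLND in melanoma cells, namely CD274, PDCD1LG2, CD276, PVR, NECTIN2, NT5E, CD47 and LGALS9, each matched by its gene symbol among the 21305 genes of the expression table. Of these, 6 were measured, and PDCD1LG2 and NT5E were not analysed here. Of the 6, 5 reached a mean of 10 normalized reads over all libraries and were tested, while LGALS9 stayed under it.

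CD274 encodes PD-L1, which binds PD-1 on T cells. CD276 (B7-H3) belongs to the same B7 family. PVR (CD155) and NECTIN2 (CD112) are adhesion proteins that bind the inhibitory receptor TIGIT and the activating receptor CD226, and NECTIN2 also binds the inhibitory receptor PVRIG. CD47 is the signal that keeps macrophages from engulfing a cell, through SIRPA, and LGALS9 (galectin-9) is a secreted lectin that binds TIM-3. In many cell types PD-L1 is induced by interferon through JAK and STAT proteins. GRASLND has been linked to interferon signalling, and the comparison asks whether transcripts of checkpoint ligands moved when it was lowered.

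RNA was sequenced in 7 libraries of 501Mel, a human melanoma line of melanocytic character that was transduced with an inducible hairpin vector and selected as a pool. All 7 carried a doxycycline-driven short hairpin RNA and had received doxycycline. In 3 libraries (shlacZ, the control) the hairpin targeted bacterial lacZ, in 2 (sh4) and in 2 others (sh8) it targeted GRASLND, and the labels name no interferon treatment. The labels number the replicates without saying whether they were separate cultures, so p-values measure the spread between these libraries, which may be technical.

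Depth ran from 13337317 to 22855232 reads per library. GRASLND was at 309, 329.9 and 289.7 normalized reads in shlacZ, 175 and 131 in sh4 and 227 and 163 in sh8. In each knockdown library GRASLND lay below every control (21.2% of all genes separated in either direction). It fell by 0.85 on the log2 scale in both hairpins together (limma, adjusted p = 0.0402), and an exact two-sided permutation test over 35 splits gave p = 0.0571 (smallest possible value 0.0286). Leaving out each library in turn ended the pooled call (adjusted p 0.0636 to 0.182), except for the first sh8 library. With sh4 alone it fell by 1.02 (adjusted p = 0.00662, lost without the second sh4 library at -0.82 and 0.0772), and with sh8 the log2 fold change was -0.68 (adjusted p = 0.110). The first shlacZ library stood apart from the others, with a root mean square log2 difference of at least 0.626 to its replicates against 0.466 between these. All 7 melanocytic markers were present, summing to 135575 to 146343 normalized reads in shlacZ, 51868 to 59737 in sh4 and 101544 to 104484 in sh8. Of 10 leukocyte markers, 2 were measured, CD68 (441 to 675) and ITGAM (0 to 3.39), and PTPRC and CD3D were not analysed here.

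The stretches just before CD274 and NECTIN2 are shown because these transcripts had the largest fold changes among the tested ligands, in opposite directions, although neither passed the test described further on. RefSeq promoter sequences (GRCh38.p14) were matched for 7 of the 8 ligands, with 8 promoters, and none was matched for PDCD1LG2. In the 250 bases before each RefSeq start, 5 motifs were searched on both strands. They were an interferon element (GAAA, any 2 bases, GAAA), a STAT site (TTCNNNGAA), an E-box (CACGTG), an AP-1 site (TGANTCA) and a GC box (GGGCGG). CD274 held 2 overlapping interferon elements, 1 STAT site and 1 GC box. These motifs occur in 3.02%, 6.57% and 42.6% of all 35116 promoters in the table. No other matched ligand held the interferon or the STAT letters. CD276, CD47, NT5E and NECTIN2 held GC boxes only, of which 1 of the 3 in NECTIN2 falls in the stretch shown, and PVR and LGALS9 held none of the 5 motifs. The E-box and the AP-1 letters, found in 6.34% and 6.57% of all promoters, were in none of the 8. A match is a description of letters and not a bound site. The sequences below stop before the gene start in GENCODE, with matched motifs in capitals, and lie at chr9:5450292-5450502 and chr19:44846047-44846174, both on the plus strand.
CD274: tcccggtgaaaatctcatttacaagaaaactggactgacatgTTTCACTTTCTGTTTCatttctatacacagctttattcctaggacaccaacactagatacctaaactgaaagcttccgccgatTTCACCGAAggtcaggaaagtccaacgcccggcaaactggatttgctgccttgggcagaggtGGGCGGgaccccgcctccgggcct
NECTIN2: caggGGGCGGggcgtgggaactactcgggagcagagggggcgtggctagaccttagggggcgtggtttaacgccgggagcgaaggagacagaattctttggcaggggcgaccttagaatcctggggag

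Of the 5 ligands tested, 0 passed the threshold of an adjusted p of 0.05 in any comparison by limma, and 0 by limma-voom on the recovered reads. All adjusted p-values are Benjamini-Hochberg values over 15420 genes. At an unadjusted p under 0.05, 2 of the 5 passed in both hairpins against control, 2 in sh4 and 0 in sh8. Over all genes, 4.61% had an adjusted p under 0.05 in both hairpins together, 22.5% in sh4, 2.92% in sh8 and 7.0% in sh4 against sh8. Shares of all genes at an unadjusted p under 0.05 are not given. The unadjusted counts here and below therefore have no background to be read against. The median absolute log2 fold change of the 5 ligands was 0.22 against 0.26 over all genes in both hairpins together, 0.31 against 0.34 in sh4 and 0.23 against 0.23 in sh8. The sh4 and the sh8 comparison share their control libraries. In this bulk RNA, fewer cells that carry a transcript and less of it per cell cannot be told apart.

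**Figure D1:**
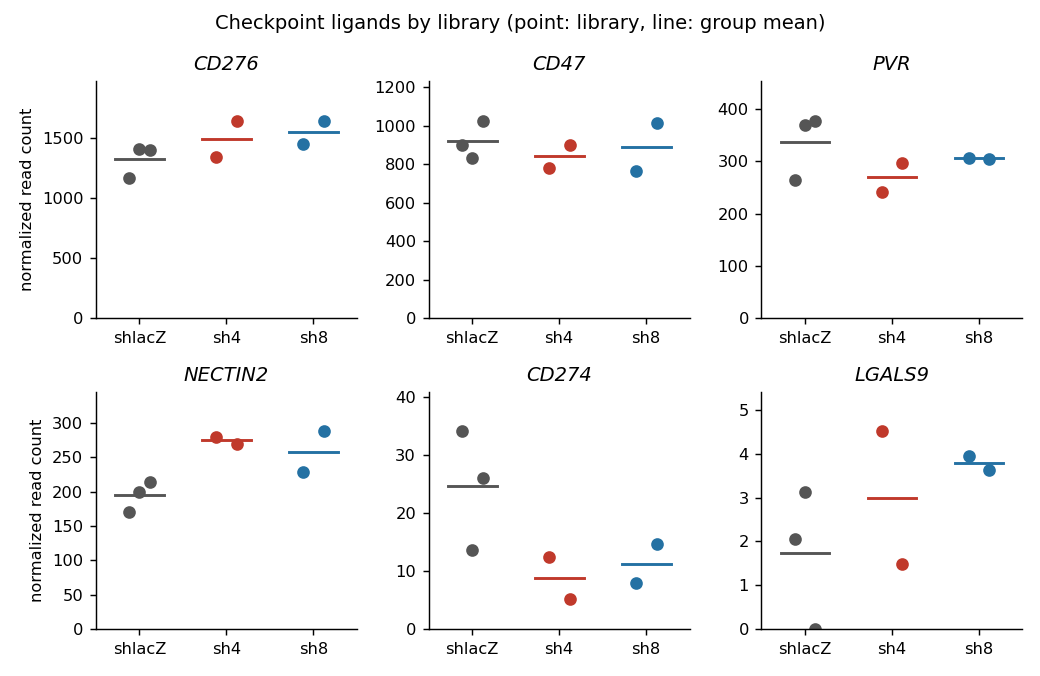
Normalized read counts (y axis, from 0) of the 6 measured checkpoint ligands in each library of shlacZ, sh4 and sh8, with points for libraries and lines for group means. The 4 knockdown libraries of NECTIN2 sit between 228 and 288, above the 3 controls, whereas the other panels overlap.

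CD274 (ENSG00000120217) lies on chromosome 9 from 5450503 to 5470566, plus strand, in hg38, with 7 exons in its canonical transcript. It was scarce in all groups. It was at 34.1, 13.6 and 26.1 normalized reads in shlacZ, 12.4 and 5.22 in sh4, and 7.91 and 14.6 in sh8. The groups overlapped only between the second shlacZ and the second sh8 library. These values rest on 6 to 33 reads per library. Pooled reads of the knockdown libraries stood at 0.396 of the control after scaling, with an interval of 0.263 to 0.588 that covers counting error only. Over the spread between libraries the ratio had a wider interval, 0.211 to 0.882. The log2 fold change was -1.21 in both hairpins together (95% interval -2.24 to -0.18, adjusted p = 0.148), -1.39 in sh4 (-2.62 to -0.17, adjusted p = 0.0969) and -1.03 in sh8 (-2.26 to 0.20, adjusted p = 0.359). In size the pooled change exceeded that of 96.3% of all genes, although it did not pass the threshold. Its SE was 0.46, against 0.13 to 0.17 for the other tested ligands, and it was not ranked among genes of a like level. Under quantile normalization the sh4 value did pass (-1.62, adjusted p = 0.0482). Without the first shlacZ library, the highest of all, the pooled value was -0.94 (adjusted p = 0.272), and without the second, the lowest control, it was -1.57, not past the threshold in either case. Leaving out each library in turn gave -1.95 (without the first sh4 library) to -0.84 (without the second) in sh4, and -1.43 (without the second sh8 library) to -0.63 (without the first) in sh8. Another gene on the other strand, ENSG00000286162, overlaps the locus, and the library kit was stranded.

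NECTIN2 (ENSG00000130202), on chromosome 19 from 44846175 to 44889223, plus strand, was the ligand whose groups did not overlap. Its libraries held 170.3, 199 and 214 normalized reads in shlacZ, 280.1 and 269 in sh4, and 228 and 288 in sh8. All 4 knockdown libraries thus lay above all 3 controls, a separation in either direction that 21.2% of all genes showed. The ratio of knockdown to control was 1.37 (95% interval 1.07 to 1.75) in both hairpins together, with a log2 fold change of 0.45 and an adjusted p of 0.124. Under sh4 it was 1.42 (1.07 to 1.88, adjusted p = 0.0731) and under sh8 1.32 (0.999 to 1.75, adjusted p = 0.271). The sh4 value passed the threshold when libraries were divided by their totals (log2 fold change 0.60, adjusted p = 0.0328) or by their upper quartiles (0.56, adjusted p = 0.0458). Without the first shlacZ library the pooled log2 fold change was 0.36 (adjusted p = 0.196).

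PVR (ENSG00000073008), a relative of NECTIN2 that shares the receptors TIGIT and CD226, lies on the same chromosome from 44643798 to 44666162, plus strand. Its libraries held 264, 369 and 378 normalized reads in shlacZ, 242 and 297 in sh4, and 306 and 305 in sh8. The first shlacZ library was low and overlapped the knockdown range, while the other controls lay above it. The ratio to control was 0.860 in both hairpins together (95% interval 0.658 to 1.12, adjusted p = 0.476), 0.806 in sh4 (0.597 to 1.09, adjusted p = 0.283) and 0.918 in sh8 (0.680 to 1.24, adjusted p = 0.784). Without the first shlacZ library PVR passed in sh4, with a log2 fold change of -0.48 against -0.31 with it (adjusted p = 0.0452), and did not in sh8 (-0.29, adjusted p = 0.265). CEACAM19 overlaps PVR on the same strand, so reads in the shared stretch are uncertain. Per kilobase of exon the ratio of NECTIN2 to PVR was 1.80, 1.50 and 1.58 in the controls, 3.23 and 2.53 in sh4, and 2.08 and 2.64 in sh8. That ratio was computed after both genes had been seen and carries no test.

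CD276 (ENSG00000103855), on chromosome 15 from 73683966 to 73714514, plus strand, was the most abundant ligand. It was at 1173, 1415 and 1401 normalized reads in shlacZ, 1348 and 1649 in sh4, and 1457 and 1648 in sh8. The lower sh4 library fell within the control range and the others lay above it. The ratio to control was 1.15 in both hairpins together (95% interval 0.943 to 1.39, adjusted p = 0.368), 1.13 in sh4 (0.904 to 1.40, adjusted p = 0.427) and 1.17 in sh8 (0.939 to 1.46, adjusted p = 0.441). The pooled log2 fold change of 0.20 became 0.11 without the first shlacZ library (adjusted p = 0.607).

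CD47 (ENSG00000196776), on chromosome 3 from 108043091 to 108091862, minus strand, lay closest to its control level. It held 898, 831 and 1027 normalized reads in shlacZ, 783 and 902 in sh4, and 767 and 1015 in sh8, and each hairpin had libraries inside and below the control range. The ratio to control was 0.941 in both hairpins together (95% interval 0.757 to 1.17, adjusted p = 0.737), 0.918 in sh4 (0.717 to 1.17, adjusted p = 0.626) and 0.964 in sh8 (0.753 to 1.23, adjusted p = 0.895). The pooled log2 value of -0.09 ran from -0.17 (without the second sh8 library) to -0.00 (without shlacZ 3) when each library was left out in turn, and was -0.10 without the first shlacZ library. These intervals leave room for a decrease of the size seen in sh4 for PVR and exclude a change of the size seen for GRASLND in sh4.

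LGALS9 (ENSG00000168961), on chromosome 17 from 27629798 to 27649560, plus strand, was close to undetected, with 2, 3 and 0 reads in shlacZ, 4 and 2 in sh4, and 3 and 4 in sh8. Its near-identical copies LGALS9B and LGALS9C were not analysed here, and reads could be split among them. The knockdown libraries held 13 reads in all and the controls 5, a ratio of 1.96 after scaling with a counting interval of 0.655 to 7.01. By an exact permutation test of the mean log2(normalized count + 1), two-sided, p was 0.229. A difference was not detectable at this depth.

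**Figure D2:**
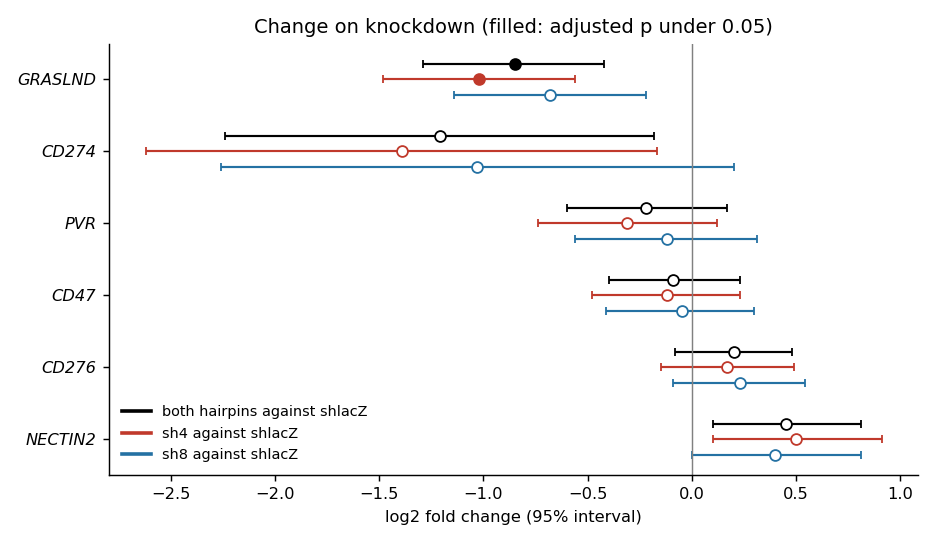
Log2 fold changes (x axis) with 95% intervals of GRASLND and the 5 tested ligands for both hairpins together, sh4 and sh8, each against shlacZ, with filled points past the adjusted p of 0.05. The filled points are those of GRASLND in both hairpins together (-0.85) and in sh4 (-1.02), and the widest intervals are those of CD274.

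The hairpins were also compared directly, because both target GRASLND. None of the 5 ligands passed between sh4 and sh8 by limma or limma-voom, and 0 had an unadjusted p under 0.05. The log2 fold changes of sh4 over sh8 ran from -0.37 for CD274 (95% interval -1.71 to 0.98) to 0.10 for NECTIN2 (-0.35 to 0.54), with -0.19 for PVR, -0.07 for CD47 and -0.06 for CD276. The interval of CD274 spans ratios from 0.305 to 1.97, so differences within that range were not resolved.

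Levels of the ligands relative to one another were taken as normalized reads per kilobase of exon. In shlacZ these were 243 ± 24.8 for CD276, 112 ± 12.1 for CD47, 52.0 ± 5.94 for NECTIN2, 32.3 ± 6.05 for PVR, 5.99 ± 2.51 for CD274 and 0.304 ± 0.279 for LGALS9 (SD, n = 3). By this length the order was the same in all 7 libraries, and over all libraries no range met the next. CD276 ran from 214 to 301 and CD47 from 93.2 to 125, and at the low end CD274 ran from 1.27 to 8.29 and LGALS9 from 0 to 0.791. By the length of the canonical transcript, the ranges of NECTIN2 (63.3 to 107) and PVR (41.7 to 65.2) met, and so did those of CD274 (1.44 to 9.37) and LGALS9 (0 to 2.62). In the first sh8 library LGALS9 then ranked above CD274 (2.29 against 2.18), and the order was kept in the other 6. CD276 made up 54.6% of the summed level of the 6 ligands in shlacZ, 57.2% in sh4 and 57.4% in sh8, and CD274 made up 1.35%, 0.450% and 0.555%.

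**Figure D3:**
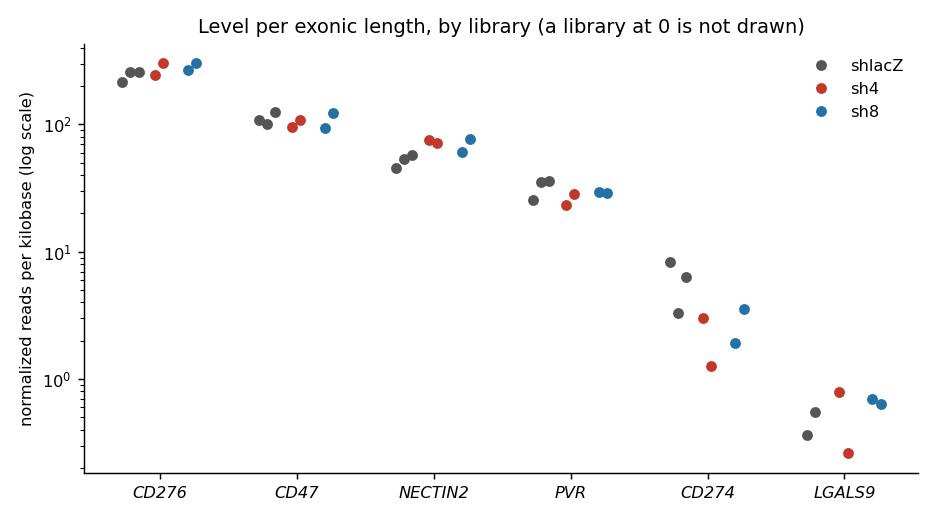
Normalized reads per kilobase of exon (y axis, log scale) of the 6 measured ligands, with a point for each library of shlacZ, sh4 and sh8, and the shlacZ library of LGALS9 at 0 left undrawn. CD276 is the most abundant in every library, from 214 to 301, and CD274 lies at 1.27 to 8.29.

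The genes most alike in pattern were found by Pearson's r over the 7 libraries, among genes with a symbol and a mean of at least 50, as a description that shares depth and groups. CD274 was followed by ZBTB8B (0.978) and PTPN13 (0.967), and NECTIN2 by KCTD2 (0.992) and DRAM1 (0.978). KCTD2 held 271, 312 and 348 normalized reads in shlacZ, 466 and 452 in sh4, and 397 and 479 in sh8. That it separated the groups as NECTIN2 did follows from its being picked for likeness over these same libraries. PVR was followed by DNAJA1 (0.995), a co-chaperone, and PPIL1 (0.994), CD276 by DYNC1H1 (0.987), the dynein heavy chain, and FBXO42 (0.978), and CD47 by ZBED8 (0.966) and DRAM2 (0.966).

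Several genes around the ligands passed the threshold. As the background of the counts that follow, 2.55% of all genes rose and 2.06% fell in both hairpins together. With sh4 10.5% rose and 11.9% fell, and with sh8 1.38% rose and 1.54% fell. Of the genes past the threshold in sh4, 46.9% were higher, and 59.3% when libraries were divided by their totals. The gene lists are given by their counts and are not tested as sets.

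Among 22 genes that control PD-L1, all of them tested, 4 rose and 2 fell in sh4, 0 rose and 1 fell in sh8, and 0 passed in both hairpins together (0 by limma-voom, 8 at an unadjusted p under 0.05). JAK1, the kinase of interferon receptors, rose in sh4 from 2635, 2843 and 3145 normalized reads in shlacZ to 5335 and 5936 (log2 fold change 0.97, adjusted p = 0.00127), against 3290.0 and 4226 in sh8 (0.38, adjusted p = 0.183). HIF1A, the hypoxia factor, rose in sh4 by 0.95 (adjusted p = 0.00341). MYC, a transcription factor that drives growth, fell by 1.51 in sh4 (adjusted p = 0.000287), from 3679 to 5178 in shlacZ to 1740.3 and 1437, and held 3857 and 4289 in sh8. These 3 sh4 calls were kept when each library was left out in turn. STAT2 (0.59, adjusted p = 0.0322), STAT3 (0.62, adjusted p = 0.0118) and the phosphatase PTPN2 (-0.51, adjusted p = 0.0199) complete the sh4 count and were named after their values had been seen. Leaving out 1 library ended the STAT2 call in 5 of 7 cases (adjusted p 0.0517 to 0.270), the STAT3 call without the second sh4 library (0.48, adjusted p = 0.115) and the PTPN2 call in 4 of 7 cases (adjusted p 0.0591 to 0.115). The sh8 call was NFKB1, an NF-kB subunit, with 579 and 609 normalized reads against 971, 1240.1 and 1147 in shlacZ (log2 fold change -0.91, adjusted p = 0.0110), and it was lost without either sh8 library (-0.87 and -0.94, adjusted p 0.0962 and 0.0988). In sh4 its log2 fold change was 0.03 (adjusted p = 0.922). IRF1, the interferon-induced factor, lay at 27.9, 33.5 and 37.4 in shlacZ and 24.6 to 30.3 in the knockdown libraries. The median log2 fold change of the list was 0.15 in both hairpins together, 0.17 in sh4 and 0.08 in sh8, against -0.01 over all genes in each.

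Of 4 tested genes among other B7 and checkpoint ligands, CEACAM1 fell in both hairpins together, in sh4 and in sh8, and the other 3 did not pass. CEACAM1 is an adhesion molecule that inhibits lymphocytes and has been described as a partner of TIM-3. Its libraries held 3443, 3062 and 4111 normalized reads in shlacZ, 1835 and 1178 in sh4, and 1337 and 1667 in sh8. All knockdown libraries lay below all controls, a separation in either direction that 21.2% of all genes showed. The log2 fold change was -1.24 in both hairpins together (SE 0.17, adjusted p = 0.00772), -1.26 in sh4 (adjusted p = 0.00217) and -1.23 in sh8 (adjusted p = 0.0125). The sh8 call was lost without its first library (-1.07, adjusted p = 0.119) or its second (-1.39, adjusted p = 0.0714). Of the 7 melanocytic markers 6 fell in sh4 and 0 passed in sh8 (0 by limma-voom, 5 at an unadjusted p under 0.05), and their part in the CEACAM1 value was not tested.

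Among the nectin relatives, 2 of 5 tested genes rose in sh4, and 0 passed in sh8 or in both hairpins together by limma or limma-voom (1 and 2 at an unadjusted p under 0.05). CADM4, a cell adhesion molecule, held 160.0, 133 and 149 normalized reads in shlacZ, 353 and 298 in sh4, and 188 and 245 in sh8. It rose by a log2 fold change of 1.14 in sh4 (adjusted p = 0.00283), a call kept without any single library, and stood at 0.55 in sh8 (adjusted p = 0.166). NECTIN3, which binds NECTIN2 and PVR across cell contacts, rose by 0.54 in sh4 (adjusted p = 0.0340). Its second sh4 library was the highest at 985 normalized reads, and without it the value was 0.33 (adjusted p = 0.263). The NECTIN3 call was also lost without shlacZ 2, shlacZ 3 or either sh8 library, with adjusted p from 0.0544.

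In the adenosine pathway, 1 of 5 tested genes rose in both hairpins together, 1 rose and 2 fell in sh4, and 1 rose in sh8. The gene that rose was ENTPD1 (CD39), which turns extracellular ATP into AMP, the substrate of the enzyme that NT5E encodes. It held 6722, 5446 and 6295 normalized reads in shlacZ, 9889.7 and 9973 in sh4, and 8449 and 9784 in sh8. All knockdown libraries lay above all controls, a separation in either direction that 21.2% of all genes showed. The log2 fold change was 0.63 in both hairpins together (SE 0.12, adjusted p = 0.0255), 0.70 in sh4 (adjusted p = 0.00427) and 0.57 in sh8 (adjusted p = 0.0458). The sh4 call was kept without any single library. The pooled call was lost without shlacZ 2, shlacZ 3 or either sh4 library (adjusted p 0.0572 to 0.140). The sh8 call was lost in 6 of 7 such fits, all but the one without the first shlacZ library (0.46 to 0.67, adjusted p 0.0804 to 0.331). ADA, which degrades adenosine, fell by 0.60 in sh4 (adjusted p = 0.0411), and ENPP1, another ectonucleotidase, fell by 0.47 (adjusted p = 0.0453). Both of these were lost in the same 6 fits (-0.66 to -0.51 for ADA and -0.59 to -0.36 for ENPP1). Division by library total also ended both calls (-0.50, adjusted p = 0.0725 for ADA and -0.37, adjusted p = 0.0570 for ENPP1). So did a minimum mean of 1 and the fit with replicate number as a block.

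On the CD47 axis, 2 of 6 tested genes rose and 1 fell in both hairpins together and again in sh4, and 1 rose in sh8. CD24, another surface signal to macrophages, was at 5.16, 3.14 and 2.61 normalized reads in shlacZ, 49.7 and 47.0 in sh4, and 10.5 and 15.5 in sh8. The log2 fold change was 3.45 in sh4 (adjusted p = 0.000972) and 1.61 in sh8 (adjusted p = 0.0991). With a pseudocount of 10 in place of 1, the sh4 value was 2.10 and still passed. The controls rest on 3 to 5 reads each, and CD24 has pseudogene copies that could share reads. Without its sh4 libraries CD24 would lie under the minimum mean of 10, so it was tested only because of them. The count of 2 genes that rose, in sh4 and in both hairpins together, is therefore partly built in by that minimum. The tests of CD24 and its fits without 1 library, which kept the minimum over all 7 libraries, rest on the same selection. LRP1, the receptor that takes up calreticulin-marked cells, was at 943, 552 and 716 in shlacZ, 1474 and 1062 in sh4, and 1285 and 1889 in sh8. Its log2 fold change was 0.80 in sh4 (adjusted p = 0.0415) and 1.11 in sh8 (adjusted p = 0.0417). SIRPA, the receptor of CD47, was at 4233, 5362 and 5346 in shlacZ, 3007 and 3232 in sh4, and 3573 and 3814 in sh8, with -0.67 in sh4 (adjusted p = 0.00617) and -0.42 in sh8 (adjusted p = 0.122). With both hairpins pooled these 3 genes passed at 2.53 for CD24 (adjusted p = 0.0408), 0.96 for LRP1 (0.0409) and -0.55 for SIRPA (0.0478), of which limma-voom kept LRP1, and CD24 was at 1.43 (adjusted p = 0.0621) with a pseudocount of 10. The pooled calls were lost without 5, 4 and 5 of the 7 libraries in turn, with adjusted p up to 0.162, 0.186 and 0.214, among them shlacZ 2, shlacZ 3 and sh4 1 in each case. In sh4 the CD24 call was kept without any single library, the SIRPA call was lost without the first sh4 library (-0.62, adjusted p = 0.0607), and the LRP1 call without shlacZ 2, shlacZ 3 or either sh4 library (adjusted p 0.0714 to 0.300). The sh8 call of LRP1 was lost in 6 of 7 such fits, all but the one without the first shlacZ library (adjusted p 0.0641 to 0.324).

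Of 3 tested galectins, 1 rose and 1 fell in both hairpins together and in sh4, and 1 fell in sh8. LGALS1, a secreted lectin that promotes T cell death, was at 32.0, 52.4 and 60.9 normalized reads in shlacZ, 99.4 and 187 in sh4, and 109 and 116 in sh8. Its log2 fold change was 1.52 in sh4 (adjusted p = 0.0112, lost without the second sh4 library at 1.07 and 0.132) and 1.25 in sh8 (adjusted p = 0.0856). LGALS3, which binds LAG-3, was at 4034, 4023 and 4346 in shlacZ, 1843 and 1705 in sh4, and 2797 and 2832 in sh8. It fell by 1.22 in sh4 (adjusted p = 0.000110), a call kept without any single library, and by 0.55 in sh8 (adjusted p = 0.0257), a call lost without shlacZ 2, shlacZ 3 or either sh8 library (adjusted p 0.0757 to 0.183). With both hairpins pooled LGALS1 stood at 1.39 and LGALS3 at -0.89 (adjusted p = 0.0334 for each), and both calls were lost when any control or sh4 library was left out (adjusted p 0.0567 to 0.137).

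Receptors that bind these ligands, or their relatives, are best known from lymphocytes, and 3 of the 9 listed reached the minimum mean. Of these 3, 2 rose in sh4, and 0 passed in sh8 or in both hairpins together by limma or limma-voom (2 at an unadjusted p under 0.05 in each). CTLA4, the inhibitory receptor of CD80 and CD86, held 458, 768 and 557 normalized reads in shlacZ, 1822 and 2205 in sh4, and 961 and 908 in sh8. Its log2 fold change was 1.79 in sh4 (SE 0.20, adjusted p = 0.000361), a call kept without any single library, and 0.68 in sh8 (adjusted p = 0.100). CD28, its activating counterpart, was at 5.16, 2.09 and 1.74 in shlacZ, 39.5 and 15.7 in sh4, and 3.95 and 5.46 in sh8. Every CD28 library outside sh4 lay under the minimum mean of 10, so CD28 was tested only because of its sh4 libraries. The count of 2 receptors that rose in sh4 is therefore partly built in by that minimum, and the sh4 test of CD28 rests on the same selection. CD28 rose by 2.80 on the log2 scale in sh4 (adjusted p = 0.0124), on 2 to 5 reads per control library (1.47 with a pseudocount of 10), and the call was lost without the first sh4 library (2.16, adjusted p = 0.150). CD226 held 18.9 to 31.3 in shlacZ, 16.9 and 30.6 in sh4, and 50.1 and 49.1 in sh8, and did not pass. The leukocyte markers summed to 495 to 675 normalized reads in shlacZ, 443 to 580.5 in sh4 and 568 to 672 in sh8, nearly all of it CD68, which melanoma cells also express. With 2 of 10 such markers measured, the part of leukocyte RNA in the CTLA4 and CD28 values was not tested.

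**Figure D4:**
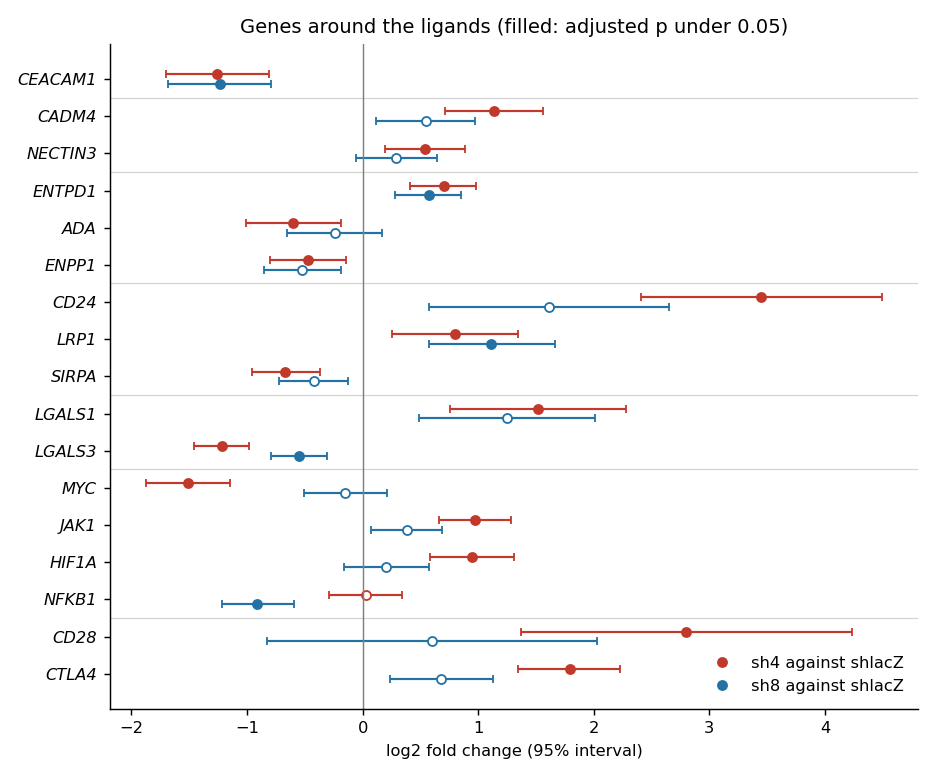
Log2 fold changes (x axis) with 95% intervals of the named genes around the ligands, for sh4 and sh8 against shlacZ, grouped by list from other checkpoint ligands at the top to receptors at the bottom, with filled points past the adjusted p of 0.05. CEACAM1 (-1.26 and -1.23), ENTPD1 (0.70 and 0.57), LRP1 (0.80 and 1.11) and LGALS3 (-1.22 and -0.55) are filled for both hairpins.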

How the data were processed

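Per the methods and labels, ribosomal RNA was depleted, stranded libraries were trimmed with Cutadapt, aligned to hg38 with STAR and quantified with Salmon; versions are not given in the sources used here. The authors deposited normalized counts (reads per gene divided by the DESeq2 size factor of the library), with genes of at least 10 reads in all. As the values moved in steps of 1 read, whole reads were recovered (100% of values within 0.01 of a whole number) for depth and limma-voom; negative binomial tests were not run. Tests used limma 3.58.1 (R 4.3.3) with a variance trend on log2(normalized count + 1) for 15420 genes (mean of 10 or more), which understates changes of low genes. The pooled comparison had 2 levels (n = 4 and 3), and the hairpins came from a fit of 3 groups. Coordinates and lengths came from GENCODE 44. A result passed at an adjusted p under 0.05. Up to 4 genes past it were named per list, by largest change. The test was tried on simulated counts with a fixed dispersion and equal changes in both hairpins, placed in genes that were not scarce. That trial does not cover scarce genes such as CD274 or changes that differ between hairpins. Members and lists were chosen with earlier results of these data known. Alternatives covered pseudocount, minimum mean, scaling, trend, groups, replicate number and leaving out each library. Intervals on reads cover counting error only.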

Additional observations from a re-analysis of the deposited data

Results flagged for a closer look

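In 3 of 27 genes checked, 1 of the 4 knockdown libraries lay far from the others, with a gap over the whole range, both on the log2 scale, above Dixon's 95% critical value, which chance alone passes in about 1 of 20 groups. For PVR the first sh4 library was low (242 against 297 to 306 normalized reads, a gap of 0.876 of the log2 range), for NECTIN3 the second sh4 library was high (0.894), and for ENTPD1 the first sh8 library was low (0.885).

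The hairpins differed from each other in 6 of 48 tested list genes around the ligands, by limma on sh4 against sh8, beside 7.0% of all genes. The log2 difference of sh4 over sh8 was 1.10 for CTLA4 (adjusted p = 0.0159), 0.59 for JAK1 (0.0458), 0.74 for HIF1A (0.0375), 0.93 for NFKB1 (0.00779), -0.67 for LGALS3 (0.00962) and -1.36 for MYC (0.00277). The MYC difference kept its call without any single library. The others were lost without 4, 6, 4, 2 and 3 of the 7 libraries in turn for CTLA4, JAK1, HIF1A, NFKB1 and LGALS3, with adjusted p up to 0.158, 0.293, 0.252, 0.0925 and 0.0961.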

How the results depend on the processing

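The count of 0 ligands past the threshold held under every alternative in both hairpins together, in sh8 and in sh4 against sh8. In sh4 it was 1 with division by library total, 1 with upper quartile scaling (NECTIN2 in each) and 1 with quantile normalization (CD274), and 0 to 1 without 1 library (PVR, without the first shlacZ library). Of 356 refits of single ligands, 340 kept direction and side of the threshold and 12 changed sign, none of them past the threshold before or after. In sh4 against sh8, division by library total gave 0.03 for CD276 and 0.01 for CD47, and leaving out 1 library gave -0.92 to 0.19 for CD274, -0.20 to 0.09 for CD276, -0.07 to 0.27 for NECTIN2 and -0.27 to 0.13 for CD47. For CD47 in sh8 the replicate block gave 0.03 and leaving out 1 library -0.25 to 0.15. Of 663 refits of named list genes, 151 lost the call and 0 changed sign. Among those lost without the variance trend were the pooled ENTPD1 call (0.63, adjusted p = 0.0741) and the sh8 CEACAM1 call (-1.23, adjusted p = 0.0936).

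GRASLND in both hairpins together lost its call without the variance trend (-0.85, adjusted p = 0.0805) and with the replicate block (-0.90, adjusted p = 0.150), and ran from -0.99 to -0.73 without 1 library. Same-numbered libraries did not deviate together in every pair (r from -0.08 to 0.34), and the main fits took no pairs. In groups of 2 libraries the deviations mirror each other, so these values are not independent and cannot exclude pairing. The replicate block left 0 ligands past in each comparison. It ended the pooled calls of CEACAM1 (-1.13, adjusted p = 0.0803), ENTPD1 (0.65, 0.138), CD24 (2.37, 0.205), LRP1 (0.95, 0.190), SIRPA (-0.49, 0.207), LGALS1 (1.57, 0.0803) and LGALS3 (-0.85, 0.190). With the block, 42 genes passed in place of 711 in both hairpins together. That count was 138 without the trend, 2534 from the fit of 3 groups and 64 to 1144 without 1 library. In sh4 3464 became 1413 to 4865 without 1 library. In sh8 451 became 59 without the trend, 299 with only the compared groups and 53 to 1600 without 1 library, and in sh4 against sh8 1079 became 476 without the trend and 144 to 1975 without 1 library. The causes of these changes in the counts were not tested. With the canonical transcript length the shlacZ levels per kilobase were 404 for CD276, 174 for CD47, 72.3 for NECTIN2, 58.2 for PVR and 1.01 for LGALS9. LGALS9 and CD274 are limited by their read counts.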
